A study of Mus musculus with 4 samples.

Results

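TAM_C1q cells are tumour-associated macrophages that were named for the complement protein C1q. They were taken here as all cells with that class name in the deposited cell annotation, which gave 6608 of 34447 cells. The cells came from CD45+ live cells sorted out of tumours of YUMM1.7-OVA RTT. This mouse melanoma line carries ovalbumin, and targeted therapy no longer controls it. The hosts were Rag2-/- mice, which have no T and B cells of their own. All mice received OT-1 CD8+ T cells, which recognise ovalbumin, on day 7 (adoptive T cell transfer, ACT), and tumours were taken on day 10, which was 72 h after ACT. There were 4 groups with 1 library each, made from 3 pooled tumours. CTRL tumours carried an mCherry control vector, and IRF3/7 tumours were made to express Irf3 and Irf7 in the cancer cells. COX2i mice received celecoxib, an inhibitor of cyclooxygenase-2 (COX2), by daily oral gavage from day 3, and COX2i + 5-AZA mice received celecoxib together with the DNA methyltransferase inhibitor 5-azacitidine, injected every 3 days. Because the cancer cells are 1 line and each group is 1 library, differences between tumours or clones cannot be told apart from differences between groups.

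C1q is the recognition part of the classical complement pathway and is built from 3 chains, encoded by C1qa, C1qb and C1qc, which lie side by side in the genome. In many tissues and tumours macrophages are the main source of C1q. Macrophages with much C1q are known for uptake of dying cells, for handling of lipid and iron, and for a resident-like set of receptors, in contrast to macrophages rich in osteopontin (Spp1). Blood monocytes that enter a tumour can turn into such macrophages, and interferons can change their gene expression toward antigen presentation and T cell attraction.

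TAM_C1q held 3199 CTRL cells, 2023 COX2i cells, 1379 COX2i + 5-AZA cells and 7 IRF3/7 cells. The 7 IRF3/7 cells were left out of the comparisons of expression given here. In the other 3 libraries the class gave 23452635, 15935305 and 13992532 unique molecular identifiers (UMIs, each one counted transcript), with medians of 6857, 7368 and 9345 UMIs per cell. Expression was the sum of UMIs of a gene over the cells of the class relative to all UMIs of the class, in the usual unit CPM, so 3 UMIs, the limit that a count of 0 allows, corresponded to 0.128, 0.188 and 0.214 CPM. Values are listed throughout in the order CTRL, COX2i, COX2i + 5-AZA unless stated otherwise, and intervals in parentheses are exact 95% intervals that cover counting error only. Intervals of differences between classes are normal approximations instead. With 1 library a group there was no replicate check and no test, and a gene was called higher or lower between libraries when its CPM differed by at least 2-fold, a log2 ratio of 1. The class also held UMIs of markers of other cells, whose source was not tested. Summed markers of T cells stood at 0, 0 and 0.143 CPM, of NK cells at 0.810, 1.57 and 26.4 CPM, of neutrophils at 144, 37.5 and 111 CPM, and of tumour or stromal cells at 471, 514 and 182 CPM. Monocyte markers summed to 2957, 2455 and 2192 CPM. Of these 7 markers 4 were higher and 1 lower in COX2i + 5-AZA than in COX2i, against 3.28 and 4.32% of all genes. Of the TAM_C1q cells, 1888 (28.6%) had a droplet barcode that also occurred in another library, against 29.1% of all cells, and no full barcode was shared.

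The class was first checked against its markers. C1qa stood at 8504, 7245 and 7802 CPM, C1qb at 5855, 5881 and 6059 CPM and C1qc at 2853, 2503 and 2786 CPM in the class. Classes were ranked only in libraries where they had 50 cells. Among others, this left out TAM_H2Ab1 in CTRL and COX2i (19 and 41 cells) and the class Macro in COX2i (23 cells). It also left out Ctsk_Macro in COX2i + 5-AZA (37 cells) and Monocyte_1 in CTRL (44 cells). Of the ranked classes TAM_C1q was highest in CTRL and in COX2i, and in COX2i + 5-AZA only TAM_H2Ab1 was higher, with 8237 CPM of C1qa. TAM_cycling came close, with 8183, 6507 and 7018 CPM of C1qa, and in CTRL Macro held 6717 and Infl_Mono 6189 CPM. The dendritic cell class cDC2 held 315, 429.9 and 548 CPM of C1qa. A UMI of C1qa was found in 96.6, 97.5 and 99.7% of TAM_C1q cells thinned to 3000 UMIs (96.9, 97.9 and 99.6% unthinned, at the median depths above), against 25.4, 27.2 and 22.8% of cells of the non-immune class Myofibrobl (58.1, 54.5 and 55.0% unthinned, at medians of 15008, 11036 and 15212 UMIs). Thinning left out 218, 106 and 68 TAM_C1q cells and 33, 89 and 8 Myofibrobl cells with fewer UMIs. The macrophage receptors Adgre1 (F4/80, 618, 670.3 and 491 CPM) and Mertk (a receptor for dying cells, 244, 135 and 181 CPM) were also highest in TAM_C1q of the ranked classes in these 3 libraries.

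The markers given for the class fell into 2 sets. Apoe (apolipoprotein E), Slco2b1 (an organic anion transporter), Pf4 (the chemokine CXCL4) and Bhlhe41 (a transcription factor) were highest in TAM_C1q in all 3 libraries among the ranked classes. Apoe stood at 41133, 12859 and 14694 CPM in TAM_C1q. In the same libraries Apoe in cDC2 stood at 686, 217 and 209.6 CPM, and the highest other class in CTRL was Infl_Mono at 35414 CPM. Gas6, a ligand of Mertk, stood at 576, 452 and 432 CPM and was exceeded among ranked classes in CTRL, by Macro with 799 CPM. Cd163, the receptor for haemoglobin bound to haptoglobin, and Cbr2, a carbonyl reductase, were below those of Macro in both libraries in which Macro was ranked. Cd163 stood at 121, 24.6 and 9.79 CPM in TAM_C1q against 895 and 249.8 CPM in Macro in CTRL and in COX2i + 5-AZA, and Cbr2 at 459, 396 and 190.1 CPM against 1424 and 420.1 CPM. The label thus stood on 4 of 7 given markers in each of the 3 libraries. The C1q chains were abundant but shared at near levels with TAM_cycling, and with TAM_H2Ab1 in COX2i + 5-AZA. Cd163 and Cbr2 marked Macro more than TAM_C1q in the 2 libraries where both were ranked. These markers were chosen with results of these data known, and cells were clustered on the same genes, so these levels describe the class and test nothing.

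The promoters of C1qb and C1qc are shown because both chains were abundant in every library. They are the reference sequences of RefSeq (GRCm38.p6), from 250 bases before to 50 bases after the RefSeq start, on the minus strand at chr4:136886151-136886450 for C1qb (ENSMUSG00000036905) and chr4:136892865-136893164 for C1qc (ENSMUSG00000036896). C1qa had no entry. Capitals mark AGGAAGT or its reverse complement, the letters searched for PU.1, a factor known to set the macrophage programme.
C1qb: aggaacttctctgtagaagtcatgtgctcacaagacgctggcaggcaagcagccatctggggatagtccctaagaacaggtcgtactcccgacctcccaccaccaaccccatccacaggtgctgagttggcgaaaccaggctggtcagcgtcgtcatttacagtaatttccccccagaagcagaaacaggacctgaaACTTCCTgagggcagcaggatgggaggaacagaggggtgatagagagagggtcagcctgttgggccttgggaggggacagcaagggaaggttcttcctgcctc
C1qc: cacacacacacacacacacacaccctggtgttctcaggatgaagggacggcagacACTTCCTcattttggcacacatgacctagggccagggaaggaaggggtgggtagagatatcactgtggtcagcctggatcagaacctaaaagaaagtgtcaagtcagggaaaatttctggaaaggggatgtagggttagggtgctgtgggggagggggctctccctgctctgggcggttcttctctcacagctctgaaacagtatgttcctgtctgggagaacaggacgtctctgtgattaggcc
The match lay 53 bases before the start in C1qb and 195 bases before it in C1qc. These letters occurred on either strand in 3072 of 32851 promoters (9.35%). Of the 20 study markers of TAM_C1q, 17 genes had a promoter entry. A match in any entry of the gene was found for 6 of them (35.3%), among them Fcrls, Mrc1, Pf4 and Selenop. The 9.35% counts promoters and the 35.3% genes, so they are not strictly alike. A match describes the letters of this window and shows no binding.

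**Figure D1:**
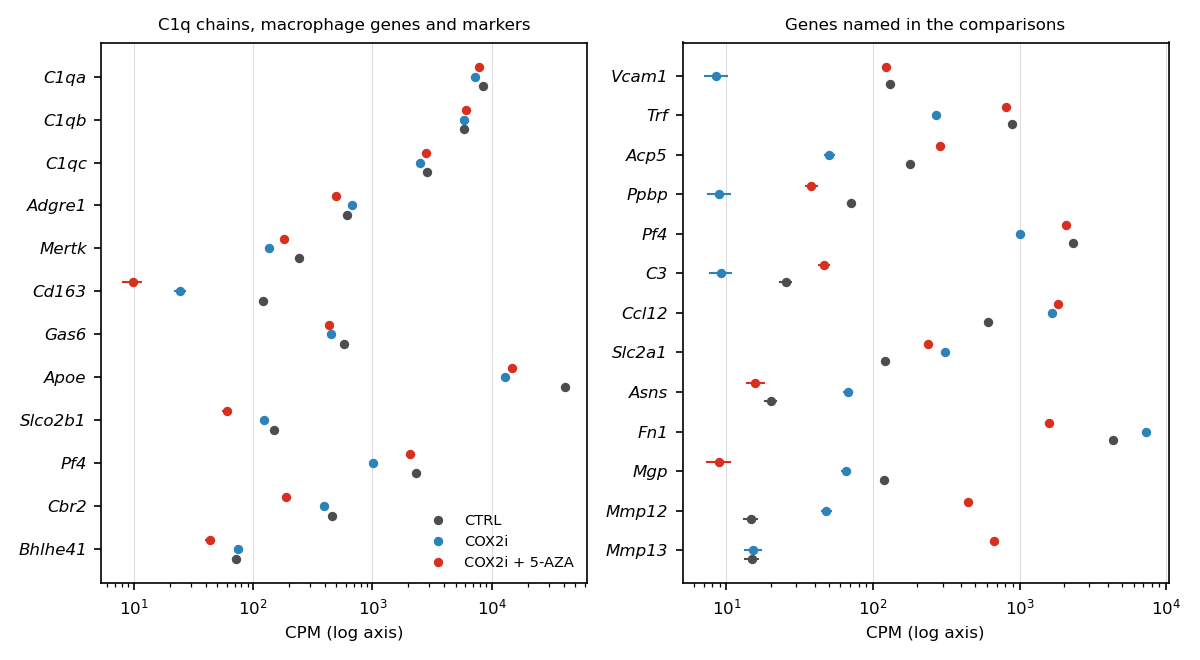
Level of genes within TAM_C1q cells in CTRL (grey), COX2i (blue) and COX2i + 5-AZA (red), in CPM on a log axis. Points are sums over the cells of 1 library and lines exact 95% Poisson intervals. On the left the C1q chains sit close together in the 3 libraries while Apoe and Cd163 are highest in CTRL, and on the right Vcam1, Trf, Acp5 and Ppbp have their lowest point in COX2i and Mmp12 and Mmp13 their highest in COX2i + 5-AZA.

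TAM_C1q cells made up a falling share of the CD45+ cells from CTRL to COX2i to COX2i + 5-AZA. The share was 35.7% (34.7 to 36.7) in CTRL, 22.2% (21.3 to 23.02) in COX2i and 13.7% (13.1 to 14.4) in COX2i + 5-AZA. It was 1.61-fold lower in COX2i than in CTRL (1.53 to 1.71), 1.61-fold lower in COX2i + 5-AZA than in COX2i (1.50 to 1.73) and 2.60-fold lower in COX2i + 5-AZA than in CTRL (2.44 to 2.77). In IRF3/7 the 7 cells were 0.111% (0.0445 to 0.228) of 6329 cells, which was 323-fold lower than in CTRL (157 to 804). The intervals of the 4 libraries did not overlap, and they hold no spread between tumours.

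How far the share moved depended on which cells it was counted with. Among the 6 macrophage classes, TAM_C1q made up 42.8% (41.7 to 43.9) in CTRL, 29.7% (28.6 to 30.8) in COX2i, 33.5% (32.1 to 34.96) in COX2i + 5-AZA and 1.59% (0.643 to 3.26) in IRF3/7, so COX2i + 5-AZA stood above COX2i on this scale. The class TAM_cycling, in which C1qa stood at 8183 CPM in CTRL and 6507 CPM in COX2i, took 16.3%, 34.6% and 13.2% of all cells. Counted together, TAM_C1q and TAM_cycling made up 52.0% (51.0 to 53.0) of CTRL, 56.8% (55.8 to 57.8) of COX2i, 26.9% (26.0 to 27.8) of COX2i + 5-AZA and 0.427% of IRF3/7. With cycling cells included, COX2i was no longer below CTRL but slightly above it, at a log2 ratio of 0.13, whereas the shares in COX2i + 5-AZA and IRF3/7 remained lower. The class Monocyte_1 took 0.491%, 4.31% and 36.3% of cells, and all shares of a library sum to the whole, so fewer TAM_C1q cells and more of other cells cannot be told apart.

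**Figure D2:**
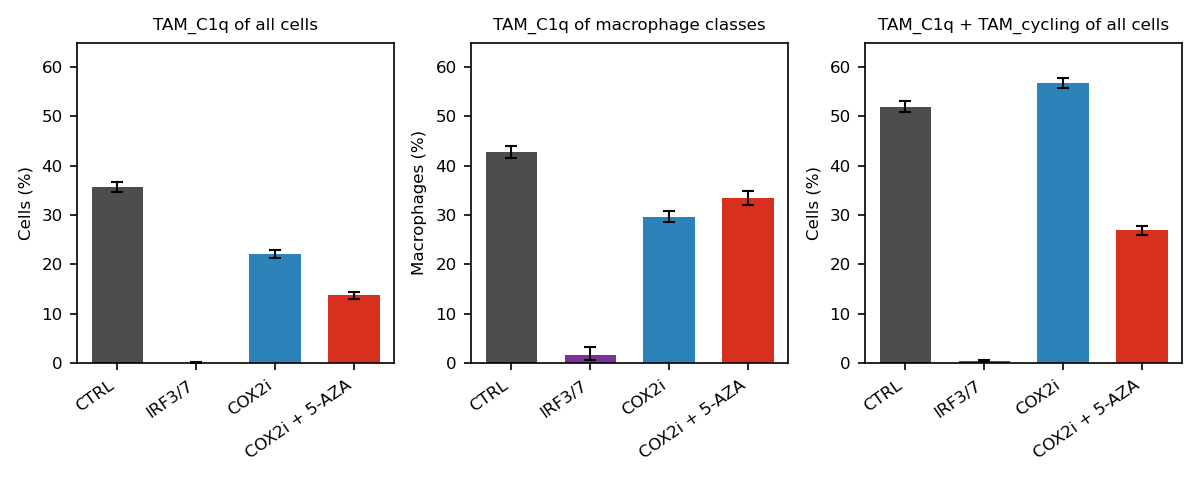
Share of TAM_C1q cells in each library, of all cells (left), of the 6 macrophage classes (middle) and together with TAM_cycling of all cells (right), in percent, with exact 95% Clopper-Pearson intervals as error bars. The left bars fall from 35.7% in CTRL to 22.2% and 13.7%, the middle bars place COX2i + 5-AZA at 33.5% above COX2i at 29.7%, and the right bars place COX2i at 56.8% above CTRL at 52.0%.

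The balance of C1q and Spp1 UMIs within cells was compared between libraries and classes, since UMIs per gene in this probe assay depend on the probes and give no order of the genes themselves. The 3 C1q chains together had more UMIs than Spp1 in 81.7% (80.3 to 82.98) of TAM_C1q cells in CTRL, in 78.8% (76.9 to 80.6) in COX2i and in 96.1% (94.9 to 97.0) in COX2i + 5-AZA. In TAM_Spp1 cells the same was true of 31.1%, 42.6% and 54.7%, and in TAM_cycling cells of 83.5%, 82.3% and 96.3%. No C1q UMI was found in 39, 9 and 3 TAM_C1q cells. Spp1 stood at 6826, 8387 and 2989 CPM in the class. A UMI of Mki67 or Top2a, which dividing cells express, was present in 34.2%, 40.9% and 28.7% of TAM_C1q cells, against 14.2%, 22.7% and 13.7% of TAM_Spp1 cells and 86.3%, 91.0% and 90.1% of TAM_cycling cells. These shares are unthinned, and the median depths were 4047, 4424 and 5417 UMIs in TAM_Spp1 and 10038, 10389 and 13011 UMIs in TAM_cycling, so no difference in division is read from them.

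The first comparison of expression asked how TAM_C1q cells differed when COX2 was inhibited. Of 10688 genes that reached 50 UMIs over both libraries, 141 (1.32%) were higher in COX2i than in CTRL and 313 (2.93%) were lower, with a median log2 ratio of 0.0038 over all genes. The lists of MHC class II, of interferon-γ and of hypoxia and glycolysis each had 5 genes higher and none lower, and Apoe and Cd163 stood among the lower genes. These differences are between TAM_C1q cells of 2 libraries. TAM_Spp1 cells of the same libraries give the same contrast, and their log2 ratio is given for some of the genes.

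Fdps, Cyp51 and Scd2 were among the 15 largest rises in COX2i, which fixed their direction, and stood on no list. Fdps, an enzyme of the mevalonate pathway, stood at 39.7, 115 and 116 CPM, a log2 ratio of 1.53 (1.41 to 1.64) for COX2i against CTRL. Cyp51, which acts later in sterol synthesis, stood at 27.5, 70.2 and 69.8 CPM and Scd2, a fatty acid desaturase, at 32.4, 92.4 and 43.4 CPM. Of the 21 genes of cholesterol and lipid handling with enough UMIs, 2 were higher, among them Lpl, and 4 lower (Apoe, Plin2, Fabp5 and Gpnmb), with a median of -0.34. Apoe fell by 1.68 on the log2 scale, from 41133 to 12859 CPM, and it was also lower in TAM_Spp1, by a log2 ratio of -1.24. Plin2, a coat protein of lipid droplets, stood at 710.5, 277 and 574 CPM, and Fabp5, a fatty acid binding protein, at 815, 339 and 1077 CPM, both lowest in COX2i. Lpl, lipoprotein lipase, stood at 6.57, 41.9 and 85.3 CPM and was lowest in CTRL.

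Of 18 genes of hypoxia and glycolysis, 5 were higher in COX2i (Pfkp, Slc2a1, Slc16a3, Egln3 and Adm) and none lower, with a median log2 ratio of 0.73, against 1.32% of all genes called higher. The glucose transporter Slc2a1 stood at 121, 308 and 238 CPM with a log2 ratio of 1.34 (1.28 to 1.41). The lactate exporter Slc16a3 stood at 124, 321 and 186 CPM and the phosphofructokinase Pfkp at 76.4, 189 and 139 CPM. In TAM_Spp1 their log2 ratios were 0.64, 0.43 and 0.80. Asns, which makes asparagine and responds to amino acid stress, stood at 20.04, 67.8 and 15.7 CPM, so that its level in COX2i stood above both other libraries, and its log2 ratio was 1.76 (1.60 to 1.92) against 0.86 in TAM_Spp1.

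Vcam1, Trf, Acp5, Ppbp, C3 and Jaml are given together because each was lowest in COX2i, and they form no list. Vcam1, an adhesion molecule for integrins of leukocytes, stood at 129.9, 8.47 and 123 CPM. Its log2 ratio was -3.94 (-4.20 to -3.69) in COX2i against CTRL and 3.86 (3.61 to 4.13) in COX2i + 5-AZA against COX2i, so the level in COX2i + 5-AZA was close to that of CTRL. In TAM_Spp1 Vcam1 was scarce, with 5.51, 1.903 and 2.98 CPM. Trf, transferrin, followed the same order with 887, 269 and 808 CPM, as did the platelet-type chemokine Ppbp with 70.4, 8.91 and 38.02 CPM. The acid phosphatase Acp5 stood at 178, 50.3 and 288 CPM and was highest in COX2i + 5-AZA. The complement protein C3 stood at 25.4, 9.16 and 46.2 CPM and Jaml, a junctional adhesion protein, at 44.1, 5.33 and 64.2 CPM. Summed neutrophil markers (144, 37.5 and 111 CPM) and mast cell markers (12.9, 4.14 and 9.005 CPM) moved in the same order as Vcam1 in the class, and summed osteoclast markers without Acp5, which is one of them, stood at 269, 144 and 173 CPM. Their part in these values was not tested.

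A few scavenger and lectin receptors moved, in both directions. Of 13 in COX2i against CTRL, Mgl2 was higher and Cd163 and Lyve1 lower, with a median of -0.27, and the same 3 genes were called in COX2i + 5-AZA against COX2i, with a median of 0.03. Of all genes, 1.32% were higher and 2.93% lower in the former comparison and 3.28% and 4.32% in the latter. Cd163 had a log2 ratio of -2.30 (-2.46 to -2.15) between COX2i and CTRL and of -1.33 (-1.62 to -1.04) between COX2i + 5-AZA and COX2i. Lyve1, a hyaluronan receptor, stood at 104, 41.2 and 17.8 CPM. Outside that list, Ctsk, cathepsin K, stood at 79.3, 21.2 and 8.004 CPM, the growth factor Igf1 at 39.1, 18.8 and 17.1 CPM and the gelatinase Mmp9 at 53.04, 14.5 and 8.22 CPM. Cd163, Lyve1, Ctsk, Igf1 and Mmp9 were highest in CTRL, and Ctsk and Mmp9 are also on the osteoclast list. Ctla2a, a cysteine protease inhibitor, stood at 297, 64.01 and 121 CPM and was lowest in COX2i. The share of the class Ctsk_Macro, where Ctsk stood at 27454 CPM in CTRL, also fell from 4.24% to 1.72% and 0.369% of cells, and whether Ctsk UMIs in TAM_C1q came with those cells was not tested.

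Chemokines moved in both directions in COX2i. Of 20 chemokines, 6 were higher and 6 lower, with a median of -0.05. The higher ones were Ccl2, Ccl4, Ccl7, Ccl12, Cxcl9 and Cxcl10. Ccl12 stood at 612, 1657 and 1825 CPM, Ccl7 at 543, 1136 and 1275 CPM and Ccl2 at 319.7, 761 and 918 CPM, all ligands of the receptor CCR2. In TAM_Spp1, Ccl2 was at 257, 286 and 204 CPM, and its log2 ratio of 0.15 was below that of 1.25 (1.21 to 1.29) in TAM_C1q, a difference of 1.10 (1.00 to 1.19). The lower chemokines were Ccl8, Ccl24, Cxcl1, Cxcl3, Pf4 and Ppbp. Ccr2 itself, which marks cells recently derived from monocytes, stood at 219, 439 and 132 CPM and was highest in COX2i.

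In the prostaglandin pathway, which celecoxib targets, none of 13 genes was called in COX2i against CTRL, with a median of 0.02. As 4.25% of all genes were called in either direction, a count of 0 among 13 is near the background. Ptgs2, which encodes COX2, stood at 95.6, 94.5 and 231 CPM, Ptgs1, which encodes COX1, at 76.3, 56.4 and 99.8 CPM, and Ptger4, a receptor of prostaglandin E2, at 28.4, 35.8 and 31.9 CPM. Ptgs2 thus differed little between CTRL and COX2i and was higher in COX2i + 5-AZA, with a log2 ratio of 1.29 (1.20 to 1.38) against COX2i. Ptges, a synthase of prostaglandin E2, stood at 13.6, 6.903 and 4.65 CPM. The drug acts on the enzyme, and its activity was not measured.

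The second comparison added 5-AZA to COX2i. Of 10329 genes, 339 (3.28%) were higher in COX2i + 5-AZA than in COX2i and 446 (4.32%) were lower, with a median of -0.09. Against CTRL, 327 of 10650 genes (3.07%) were higher in COX2i + 5-AZA and 677 (6.36%) were lower, with a median of -0.08. Of the genes called, 43.2% were higher against COX2i and 32.6% against CTRL. Without cells holding markers of other cells, which kept 14.0 to 22.0% of cells, these were 61.3 and 61.6%. Without genes led by Myofibrobl they were 67.9 and 63.2%. That rule looked only at CTRL and COX2i, so by its making it removed more lower than higher genes. The balance of higher and lower genes thus depended on the cells and genes kept. The 3 comparisons share libraries, so each is given with its own values and their likeness is not counted.

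Genes of the interferon-γ list were higher in COX2i + 5-AZA than in both other libraries, with 1 gene not called against COX2i. Of 22 genes skewed to interferon-γ, 21 were higher in COX2i + 5-AZA than in COX2i and none lower, with a median log2 ratio of 1.92. Against CTRL 21 of 21 were higher, with a median of 2.83, and in COX2i against CTRL 5 of 19 were higher (Cxcl9, Gbp2, Gbp4, Ciita and Iigp1), with a median of 0.75. The summed level of the list in the class rose from 582 (573 to 592) to 972 (956 to 987) and 3109 CPM (3080.2 to 3139). Genes skewed to type I interferon moved less. Of 21 of them 5 were higher in COX2i + 5-AZA than in COX2i (Isg15, Oasl1, Oasl2, Irf7 and Ifi44), with a median of 0.59, and 7 of 22 against CTRL, with a median of 0.71. In COX2i against CTRL 0 of 22 were called, with a median of 0.14. That count is near the background, since 4.25% of all genes were called there in either direction. With TAM_cycling added to TAM_C1q, the type I medians were 1.17 against COX2i and 1.60 against CTRL, and the interferon-γ median of COX2i against CTRL was 1.27. The 2 lists overlap in their biology, since many of these genes respond to both kinds of interferon.

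Most single genes of the interferon-γ list had their levels in 1 order over the 3 libraries. In COX2i against CTRL the log2 ratio was above 0 for 18 of 19 genes and below 0 for 1. Cxcl9, a chemokine that attracts T cells through CXCR3, stood at 4.65, 24.5 and 113 CPM. Cxcl10, which acts on the same receptor and stood on the chemokine list only, stood at 7.504, 33.9 and 263 CPM. The guanylate binding protein Gbp2 stood at 42.6, 129.6 and 459.7 CPM and Iigp1, a related GTPase, at 8.27, 23.1 and 117 CPM. These levels were lowest in CTRL and highest in COX2i + 5-AZA. The transcription factor Irf1, which carries the interferon-γ signal on, stood at 90.4, 152 and 525 CPM. Socs1, which damps that signal, stood at 7.97, 14.6 and 109.8 CPM, and Cd274, which encodes the inhibitory ligand PD-L1, at 13.4, 19.3 and 127 CPM. Irf7, a factor of the type I response, stood at 59.1, 60.5 and 162 CPM, so that COX2i and CTRL differed little.

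Against the other classes, TAM_C1q held low levels of these genes. Of 22 interferon-γ list genes at 1 CPM or more in the class in COX2i + 5-AZA, TAM_C1q stood in the lower part of the order of 14 classes for 22 genes, with a median rank of 12. In CTRL its median rank was 6 of 9 classes and in COX2i 9 of 10. Gbp2 in COX2i + 5-AZA stood at 459.7 CPM in TAM_C1q, 407 CPM in TAM_Spp1, 859 CPM in Myofibrobl, 1408 CPM in cDC2, 2827 CPM in Monocyte_1 and 4116 CPM in Infl_Mono. TAM_C1q thus stood near the low end of these classes. Whether RNA released from other cells added to these values was not tested.

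Promoters of Gbp2 and Socs1, of the interferon-γ list, and of Cxcl10, of the chemokine list, are shown because each holds the letters searched for below. They are again the RefSeq sequences (GRCm38.p6) from 250 bases before to 50 after the start, at chr3:142620413-142620712 on the plus strand for Gbp2 (ENSMUSG00000028270), at chr5:92348840-92349139 on the minus strand for Cxcl10 (ENSMUSG00000034855) and at chr16:10785487-10785786 on the minus strand for Socs1 (ENSMUSG00000038037). Capitals mark GAAA, any 2 bases and GAAA, or the reverse complement, the letters searched on both strands for an interferon-stimulated response element (ISRE), which factors of the IRF family are known to bind.
Gbp2: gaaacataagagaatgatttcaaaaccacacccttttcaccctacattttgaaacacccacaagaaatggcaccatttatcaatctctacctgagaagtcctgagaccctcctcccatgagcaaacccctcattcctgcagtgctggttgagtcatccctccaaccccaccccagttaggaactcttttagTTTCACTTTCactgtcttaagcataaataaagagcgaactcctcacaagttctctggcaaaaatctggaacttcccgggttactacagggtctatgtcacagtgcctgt
Cxcl10: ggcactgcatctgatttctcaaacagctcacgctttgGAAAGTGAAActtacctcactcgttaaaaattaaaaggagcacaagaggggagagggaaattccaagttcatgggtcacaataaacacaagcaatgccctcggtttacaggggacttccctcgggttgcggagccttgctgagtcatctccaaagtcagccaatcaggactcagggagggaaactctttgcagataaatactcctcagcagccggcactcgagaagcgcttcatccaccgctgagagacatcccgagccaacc
Socs1: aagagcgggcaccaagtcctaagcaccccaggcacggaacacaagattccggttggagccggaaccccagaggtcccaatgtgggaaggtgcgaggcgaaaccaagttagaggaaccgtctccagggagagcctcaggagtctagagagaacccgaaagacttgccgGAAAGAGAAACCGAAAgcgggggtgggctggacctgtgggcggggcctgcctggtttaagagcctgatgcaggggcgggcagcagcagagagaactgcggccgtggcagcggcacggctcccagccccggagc
The match lay 59 bases before the start in Gbp2 and 213 bases before it in Cxcl10, and Socs1 held 2 overlapping matches, 83 and 77 bases before its start. List genes were counted when any of their promoters matched, while the background counts single promoters. An ISRE match was found for 10 of the 15 genes with a promoter on the interferon-γ list (66.7%), for 10 of 17 on the type I list (58.8%) and for 0 of 7 on the MHC class II list, against 1131 of 32851 promoters (3.44%). The letters TTCNNNGAA, searched for the interferon-γ activated site (GAS), were found in 7 of 15 (46.7%) and in 3 of 17 (17.6%), against 2726 of all promoters (8.3%). The promoter of Cxcl9 held no ISRE match in this window, which says nothing of other sites of the gene.

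**Figure D3:**
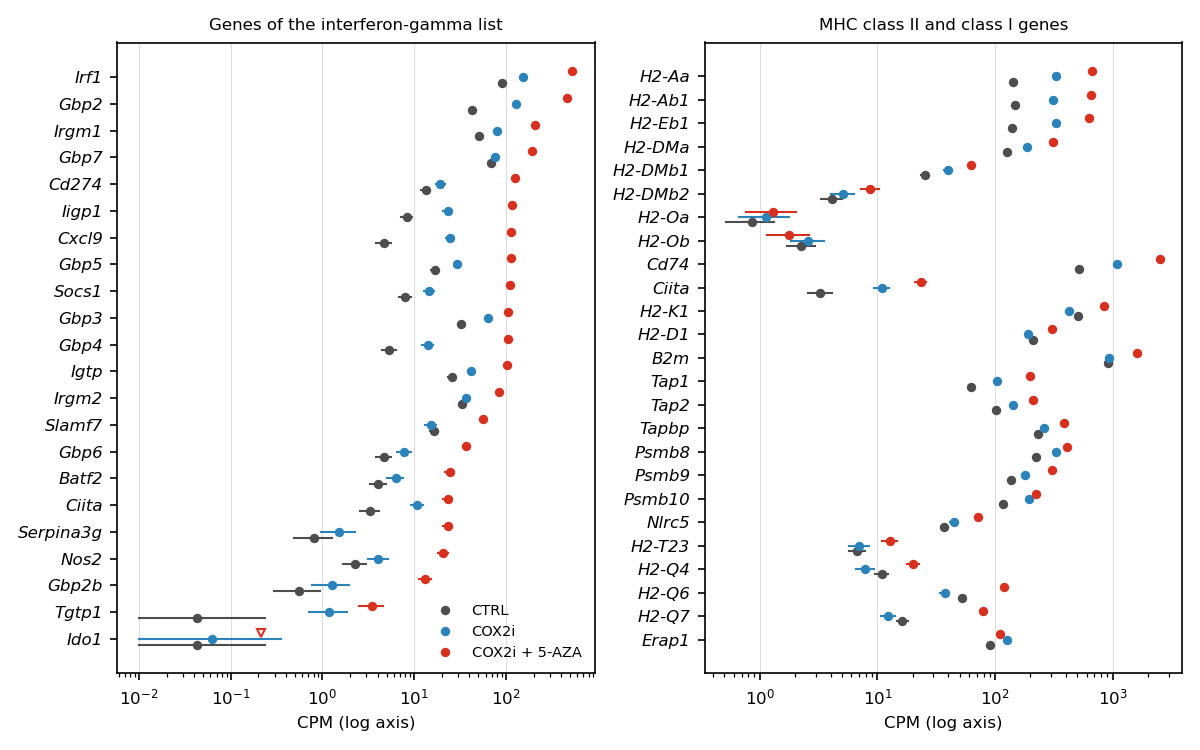
Level of genes of the interferon-γ list (left) and of MHC class II and class I genes (right) within TAM_C1q cells, in CPM on a log axis, for CTRL (grey), COX2i (blue) and COX2i + 5-AZA (red). Points are sums over the cells of 1 library, lines are exact 95% Poisson intervals and an open triangle marks 3 counts where a gene had none. The red points of Cxcl9, Gbp2, Irf1, Socs1, H2-Aa and Cd74 lie to the right of the blue and grey ones.

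MHC class II genes were mostly higher in COX2i + 5-AZA than in CTRL. MHC class II, which shows peptides to CD4+ T cells, had 5 of 9 genes higher in COX2i than in CTRL, 4 of 9 higher in COX2i + 5-AZA than in COX2i and 8 of 9 higher in COX2i + 5-AZA than in CTRL, with medians of 1.07, 0.95 and 2.17 and no gene lower. H2-Aa stood at 143, 329 and 665 CPM, H2-Ab1 at 147, 312 and 659 CPM, and Cd74, the invariant chain, at 523, 1098 and 2518 CPM. Ciita, the factor that switches these genes on, stood at 3.28, 10.9 and 23.3 CPM. All 4 genes were lowest in CTRL and highest in COX2i + 5-AZA. In TAM_Spp1 the list median was 0.93, -0.10 and 0.90, so the median step from COX2i to COX2i + 5-AZA was 0.95 in TAM_C1q and -0.10 in TAM_Spp1, whose H2-Aa stood at 2125, 3938 and 3954 CPM. Without cells holding markers of other cells, the TAM_C1q median of this step was 0.40 and that of COX2i against CTRL 1.63.

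Beside dendritic cells, TAM_C1q held little MHC class II. H2-Aa in cDC2 stood at 18655, 17769.9 and 15366 CPM. In Myofibrobl, the non-immune class, H2-Aa stood at 168, 209 and 254 CPM, so that in CTRL the level of TAM_C1q was below that of Myofibrobl. Whether Myofibrobl cells express H2-Aa themselves was not tested. In COX2i + 5-AZA the level of TAM_C1q was above that of Myofibrobl, and its rank was 13 of 14 classes. At 3000 UMIs per cell, 15.1%, 24.8% and 42.4% of TAM_C1q cells held a UMI of H2-Aa (26.6%, 41.9% and 65.05% unthinned), against 10.8%, 16.6% and 25.9% of Myofibrobl cells (29.4%, 38.0% and 60.0% unthinned). In CTRL the share at equal depth was thus higher in TAM_C1q while the level was lower, and no order is read from them. The share in Myofibrobl rose too, and the part of free RNA in the rise of TAM_C1q was not tested. MHC class I showed 0 of 15 genes higher in COX2i than in CTRL, 3 of 15 higher in COX2i + 5-AZA than in COX2i (H2-Q4, H2-Q6 and H2-Q7) and 5 of 15 against CTRL (Tap1, Tap2, Psmb9, H2-Q6 and H2-Q7). The shares of all genes called higher were 1.32, 3.28 and 3.07%, so the 0 is near the background. The peptide transporter Tap1 stood at 63.02, 104 and 198 CPM and B2m, the shared light chain, at 909, 941 and 1599 CPM. H2-Q genes are close copies of each other and their probes were not checked, so single members are uncertain, and the same holds for the Gbp genes.

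**Figure D4:**
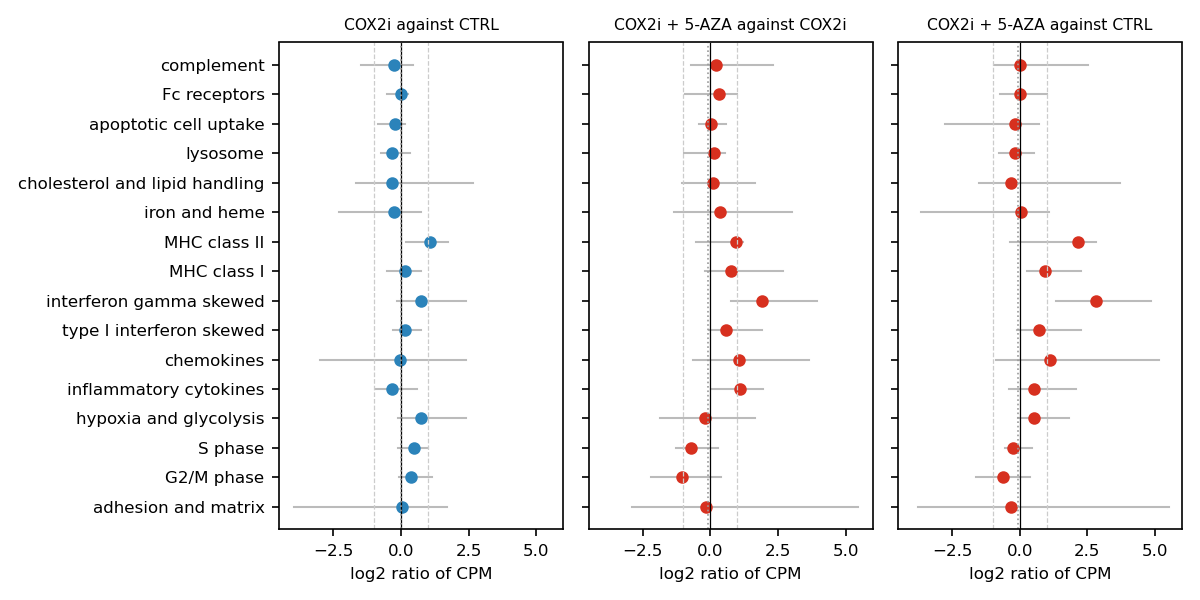
Median log2 ratio (points) and range (grey lines) of the genes of 16 lists within TAM_C1q cells, with no list of markers of other cells, for the 3 comparisons named above the panels. Dashed lines mark a log2 ratio of 1 in either direction and the dotted line the median of all genes. Of the lists drawn, the interferon-γ list stands furthest to the right in both panels with COX2i + 5-AZA, at 1.92 and 2.83, and the G2/M list furthest to the left against COX2i, at -1.05.

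Of 11 inflammatory cytokine genes, 6 were higher in COX2i + 5-AZA than in COX2i (Il1a, Il1b, Il1rn, Tnf, Il18bp and Tnfaip3), with a median of 1.10, and 0 were called in COX2i against CTRL, where 4.25% of all genes were. Against CTRL 4 of 11 were higher in COX2i + 5-AZA. Il1b, which encodes interleukin-1β, stood at 227, 342 and 949 CPM. At 3000 UMIs, 21.5%, 24.2% and 48.3% of TAM_C1q cells held a UMI of Il1b (31.9%, 33.2% and 64.97% unthinned), against 9.54%, 9.61% and 11.8% of Myofibrobl cells (22.7%, 19.4% and 30.6% unthinned). Of 19 chemokines, 10 were higher in COX2i + 5-AZA than in COX2i, with a median of 1.05 and none lower, and 10 of 19 against CTRL. Ccl5, which attracts T cells, stood at 6.65, 4.89 and 61.6 CPM and Ccl8 at 63.2, 30.8 and 138 CPM. Cxcl2, a neutrophil chemokine, stood at 176, 163 and 477 CPM. In COX2i + 5-AZA all 3 were highest. NK cells are known for abundant Ccl5 and held 4179.7 CPM of it in that library, where summed NK markers in TAM_C1q stood at 26.4 CPM, and their part in the Ccl5 of TAM_C1q was not tested.

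Of the 5 metalloproteinases, enzymes that cut matrix, on the adhesion and matrix list, Mmp8, Mmp12 and Mmp13 were higher in COX2i + 5-AZA than in COX2i, Mmp9 and Mmp14 were not called, and Mmp9 was lower than in CTRL. Mmp13, a collagenase, gave the largest rise of all genes that reached 200 UMIs over both libraries and 50 CPM in the higher one. It stood at 14.9, 15.2 and 674 CPM, a log2 ratio of 5.47 (5.28 to 5.66) in COX2i + 5-AZA against COX2i. Mmp12, the macrophage elastase, stood at 14.6, 47.9 and 442 CPM, a ratio of 3.21 (3.10 to 3.32). For Mmp13 TAM_C1q was second of 14 classes in COX2i + 5-AZA, behind TAM_H2Ab1 at 1014 CPM, and cDC2 held 35.1 CPM. For Mmp12 TAM_Spp1 was higher, at 1982 CPM. Both genes were thus shared with other macrophage classes. Mgl2, a lectin, stood at 5.33, 31.2 and 143 CPM and Plac8 at 8.95, 24.1 and 142 CPM, whose log2 ratio against COX2i was 2.56 (2.40 to 2.72) in TAM_C1q and 0.46 in TAM_Spp1. For Mgl2 the log2 ratio against COX2i was 2.20 (2.05 to 2.34) in TAM_C1q and -0.65 in TAM_Spp1, a difference of 2.85 (2.65 to 3.04).

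Regulatory genes did not move as one group. Of 9 regulatory genes, 4 were higher in COX2i + 5-AZA than in COX2i, among them Nos2, Chil3 and Retnla, with a median of 0.86. In that comparison 3.28% of all genes were higher. Nos2, which makes nitric oxide, stood at 2.26, 4.08 and 20.7 CPM. Mrc1, the mannose receptor, stood at 3354, 3277 and 3334 CPM and hardly moved. Il10, an anti-inflammatory cytokine, stood at 13.05, 6.903 and 9.86 CPM in TAM_C1q and at 25.1, 12.6 and 1.19 CPM in TAM_Spp1, so that in COX2i + 5-AZA it was higher in TAM_C1q. Of 12 checkpoint and costimulation genes 3 were higher in COX2i + 5-AZA than in COX2i (Cd274, Pdcd1lg2 and Cd80), against the same 3.28% of all genes. Cd86 stood at 167, 147 and 254 CPM and Sirpa at 1498, 1227 and 1450.1 CPM.

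Genes lower in COX2i + 5-AZA were mostly genes with their highest level in the non-immune class. Of the 446 genes lower than in COX2i, 284 (63.7%) had their highest level of all COX2i classes in Myofibrobl, against 27.6% of all genes tested. Of the 677 genes lower than in CTRL, 479 (70.8%) had theirs in Myofibrobl, against 36.2%. Myofibrobl made up 6.19%, 10.0% and 1.59% of cells, and summed tumour or stromal markers in TAM_C1q stood at 471, 514 and 182 CPM. Without genes led by Myofibrobl in CTRL or COX2i, 145 genes were lower in COX2i + 5-AZA than in COX2i and 173 than in CTRL. For the 313 genes lower in COX2i than in CTRL the share led by Myofibrobl was 37.1%, against 36.5% of all genes. Whether transcripts of non-immune cells set the lower genes was not tested.

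Matrix genes illustrate both kinds. Mgp, Sparc, Bgn and Col1a2, made by fibroblasts, stood at 119, 65.6 and 8.86 CPM, at 52.6, 51.2 and 17.8 CPM, at 68.7, 82.3 and 23.01 CPM and at 143, 241 and 73.5 CPM. Their level in Myofibrobl was higher in every library. Fn1, fibronectin, stood at 4357, 7300.0 and 1584 CPM, a log2 ratio of -2.20 (-2.23 to -2.18) in COX2i + 5-AZA against COX2i, and Spp1 had one of -1.49 (-1.504 to -1.47). In COX2i the highest level of Fn1 was in TAM_Spp1 and that of Spp1 in Myofibrobl. Of 18 adhesion and matrix genes 4 were higher and 5 lower in COX2i + 5-AZA than in COX2i, with a median of -0.16, which was 0.10 without genes led by Myofibrobl.

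Cell cycle genes were next compared. Of 21 genes of the G2/M phase, 13 were lower in COX2i + 5-AZA than in COX2i and none higher, with a median of -1.05, and 4 were lower than in CTRL, with a median of -0.61. Of 20 S phase genes 4 were lower than in COX2i, with a median of -0.72, and none was called against CTRL. Beside these counts, 4.32% of all genes were lower than in COX2i and 6.36% lower than in CTRL. The lack of a call among S phase genes against CTRL is thus near the background. Mki67 stood at 46.99, 52.9 and 23.9 CPM, Top2a at 26.6, 34.4 and 16.7 CPM and Uhrf1, a partner of the DNA methyltransferase that 5-AZA targets, at 15.2, 21.96 and 10.9 CPM. Each was highest in COX2i. Where cycling macrophages are placed changes this result. With TAM_cycling added to TAM_C1q, the medians against CTRL were 0.24 for S phase and 0.25 for G2/M, so the direction turned, and those against COX2i were -0.38 and -0.50. Without cells holding a UMI of Mki67 or Top2a, the G2/M medians were -0.65 against COX2i and -0.35 against CTRL.

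Few genes of uptake, of the lysosome and of Fc receptors were called, beside 4.25, 7.6 and 9.43% of all genes in either direction in the 3 comparisons, so that counts near 0 are read as no result for lists of this size. None of 22 lysosome genes was called in any of the 3 comparisons, with medians of -0.32, 0.13 and -0.17. None of the 7 Fc receptor genes was called either. Of 14 genes for uptake of dying cells 1 was called, Tyro3, which was lower in COX2i + 5-AZA than in CTRL at 2.43, 1.88 and 0.357 CPM. Of 12 complement genes, C3 was lower in COX2i, and C2, C3 and Cfb were higher in COX2i + 5-AZA than in COX2i. Cfb, factor B of the alternative pathway, stood at 14.2, 19.2 and 81.3 CPM. The C1q chains themselves had log2 ratios of -0.23 (-0.24 to -0.22) and 0.11 (0.09 to 0.12) for C1qa, 0.01 (-0.01 to 0.02) and 0.04 (0.03 to 0.06) for C1qb, and -0.19 (-0.21 to -0.17) and 0.15 (0.13 to 0.17) for C1qc, the first value of each being COX2i against CTRL and the next COX2i + 5-AZA against COX2i. In TAM_Spp1 the first of these was 0.30, 0.46 and 0.47. The 20 study markers of TAM_C1q, which the study chose on data that include these libraries, had 2 genes lower in COX2i (Apoe and Pf4), 1 higher in COX2i + 5-AZA against COX2i (Pf4) and 1 lower against CTRL (Apoe).

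Iron genes moved in a few members. Of 11 iron and heme genes, Cd163, Slc40a1 and Trf were lower in COX2i than in CTRL, and Slc40a1 and Trf were higher and Cd163 lower in COX2i + 5-AZA than in COX2i. Slc40a1, ferroportin, which exports iron from macrophages, stood at 15.5, 4.02 and 32.4 CPM. Hmox1, which breaks down heme, stood at 767, 919 and 735 CPM, and TAM_C1q was below Macro in CTRL and COX2i + 5-AZA, the libraries in which Macro was ranked. Of 25 transcription factors none was called in COX2i against CTRL and 2, Nr1h3 and Tfec, were higher in COX2i + 5-AZA than in COX2i, counts near the 4.25 and 3.28% of all genes. Nr1h3, the liver X receptor α, which drives cholesterol export genes, stood at 21.96, 12.4 and 34.2 CPM, and Tfec at 48.3, 26.2 and 78.3 CPM.

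Of 12 early response and stress genes 8 were higher in COX2i + 5-AZA than in CTRL, with a median of 1.14, and 3 were higher than in COX2i. In TAM_Spp1 the medians of these genes were 0.15 and 0.34. The heat shock genes Hspa1a and Hspa1b, near-identical copies whose probes were not checked, stood at 371, 657 and 1615 CPM and at 362, 729 and 1802 CPM in TAM_C1q. In TAM_Spp1 they stood at 1354, 1559 and 1481 CPM and at 1542, 1724 and 1673 CPM, with nearly equal levels in the 3 libraries. The log2 ratio of Hspa1a in COX2i + 5-AZA against CTRL was larger in TAM_C1q by 1.99 (1.94 to 2.05). Such genes can respond to handling of a tissue, and tumours were handled as pools, so the treatment and the handling of a pool cannot be told apart.

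Across all genes, TAM_C1q and TAM_Spp1 mostly gave ratios within 2-fold of each other. In COX2i against CTRL, 58 of 9727 genes with enough UMIs in both classes had a log2 ratio larger by 1 or more in TAM_C1q and 63 one smaller by 1 or more. In COX2i + 5-AZA against COX2i the counts were 161 and 59 of 9196, and against CTRL 189 and 63 of 9557. The interferon-γ list had medians of 1.12, 1.28 and 2.40 in TAM_Spp1 against 0.75, 1.92 and 2.83 in TAM_C1q, and the type I list 0.22, -0.07 and 0.14 against 0.14, 0.59 and 0.71. Cells of the 2 classes come from the same libraries, so no difference between them was tested over replicates.

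The genes given next were chosen for differing between TAM_C1q and TAM_Spp1 in the same direction in each library. Gas6 stood at 576, 452 and 432 CPM in TAM_C1q and at 16.9, 15.1 and 13.1 CPM in TAM_Spp1. Folr2, a folate receptor of resident-like macrophages, stood at 507, 420.3 and 476 CPM against 46.1, 32.6 and 14.5 CPM, and Hpgds, which makes prostaglandin D2, at 278, 189.8 and 173 CPM against 22.6, 15.8 and 10.1 CPM. Ch25h, which makes 25-hydroxycholesterol, stood at 198, 339.8 and 353 CPM against 8.901, 21.96 and 14.1 CPM. In the other direction, Il1r2, a decoy receptor of interleukin-1, stood at 22.7, 16.2 and 91.5 CPM against 433, 341 and 944 CPM, Chil3 at 50.3, 31.9 and 81.04 CPM against 1449, 557 and 715 CPM and Slpi, a protease inhibitor, at 4.95, 4.89 and 11.3 CPM against 179, 84.5 and 154 CPM. The direction was fixed by this choice and the cells were clustered on these genes, so this describes the classes and is no test.

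TAM_C1q cells also varied among themselves. Over 1961 genes at 100 CPM or more in each library, the median squared coefficient of variation (CV) among cells beyond counting noise was 0.104, 0.105 and 0.121. The 15 most uneven genes included chemokines, MHC class II and stress genes. Ordered by the lowest of the 3 values, Cxcl2 led with 20.3, 18.7 and 7.22, followed by Hmox1 with 13.2, 10.8 and 5.99. For H2-Aa it was 24.1, 10.5 and 3.94 and for Il1b 12.3, 8.71 and 3.92, so both were least uneven in COX2i + 5-AZA, where more cells held a UMI of them. Ccl4 was uneven as well, with 10.3, 8.91 and 5.15, and was found in 14.6%, 20.1% and 26.4% of cells at 3000 UMIs (21.8%, 28.3% and 38.5% unthinned) against 1.68%, 2.56% and 2.51% of Myofibrobl cells (5.23%, 6.35% and 8.12% unthinned). A cell joined with a neighbour of another class would add to this spread, and no doublet caller was run here.

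**Figure D5:**
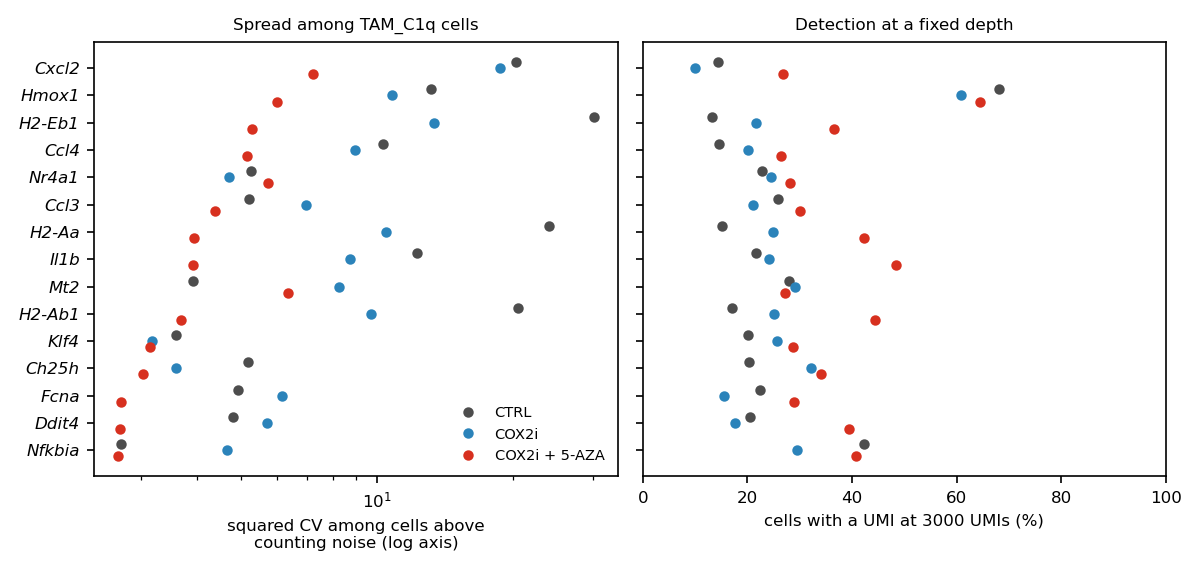
The 15 genes with the largest spread among TAM_C1q cells. The left panel gives the squared CV among cells beyond counting noise on a log axis and the right panel the share of cells with a UMI after thinning to 3000 UMIs, for CTRL (grey), COX2i (blue) and COX2i + 5-AZA (red). For H2-Aa, H2-Ab1, H2-Eb1 and Il1b the red points are lowest on the left and highest on the right, with H2-Aa at 42.4% of cells in COX2i + 5-AZA.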

How the data were processed

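CD45+ cells of 4 libraries, 1 per group, were fixed and assayed one by one with the probe-based Chromium Flex kit. The authors ran Cell Ranger 7.1.0 on a mouse probe set (mm10), kept cells by detected genes and by mitochondrial and ribosomal content, removed ribosomal and mitochondrial genes, and named cell classes from clusters of an integration. The deposited values are raw UMI counts of 12584 genes, not normalised by the authors. In 1201 cells 1000 or fewer of these genes were detected. How doublets were treated is not given in the sources used here, and no doublet caller was run.

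Counts were summed over the cells of a class in a library with Python 3.11.15, numpy 2.4.6, scipy 1.17.1 and pandas 2.3.3, and figures were drawn with matplotlib 3.10.9. Shares carry exact Clopper-Pearson, levels exact Poisson and ratios exact conditional 95% intervals. Differences of log2 ratios between classes carry 95% intervals from a normal approximation. These cover counting error only. A count of 0 was set to 3 counts per library. Genes needed 50 UMIs in the 2 libraries together, and a class 50 cells in a library. No test between groups was possible with 1 library per group. Squared CV was corrected for counting noise, and shares of cells with a UMI were computed at 3000 UMIs by the chance of drawing none. The steps were tested on simulated data. Groups were taken from the sample labels and cells were assigned to libraries by the names in the cell annotation.

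The class, its markers and the gene lists were chosen with earlier results of these data known. Genes were named as markers, as list members, as the 20 most abundant genes, as the 15 largest rises and 15 largest falls per comparison (200 UMIs in both libraries together, 50 CPM in the higher one), as the 10 genes highest and lowest against another class in the same direction in each library, and as the 15 genes of largest spread. Mx1, Mx2, Gapdh, Eno1, Ftl1, H2-T22, Cx3cr1, Ccnb1, Hmgb2, Marco and Clec7a, which stood on lists, were without values in that table. Some list members are counted but not reported by name here. Coordinates are those of RefSeq promoters on GRCm38.p6. Alternatives were another scaling, other limits on UMIs and genes per cell, other sets of cells and other denominators. Those with TAM_cycling, without shared droplet barcodes and without genes led by Myofibrobl were chosen after seeing the data.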

Additional observations from a re-analysis of the deposited data

Results flagged for a closer look

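The 7 TAM_C1q cells of the IRF3/7 library, 22280 UMIs in all, were left out of the comparisons above. Their values are set beside CTRL here because those of interferon genes were higher. Irf7 was at 898 CPM (548 to 1386, 20 UMIs in 5 of 7 cells) against 59.1 CPM in CTRL. The cancer cells of this library were made to express Irf7, and Irf7 is also on the type I list. Whether these UMIs came from cancer cells was not tested. The type I interferon list summed to 3007 CPM (2331 to 3819, 67 UMIs) against 655 CPM, and the interferon-γ list to 3995 CPM (3208 to 4916, 89 UMIs) against 582 CPM. A C1q UMI was found in 2 of the 7 cells, which together held 263 of them, so 5 of these cells carried the class name with no C1q UMI counted.

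Retnla, a secreted protein of alternatively activated macrophages, went in opposite directions in COX2i + 5-AZA against COX2i, with log2 ratios of 1.80 in TAM_C1q and -3.78 in TAM_Spp1. In TAM_C1q this rested on 18 and 55 UMIs. The difference between the classes was not tested. In COX2i + 5-AZA the class Macro held 3439.5 CPM of Retnla and TAM_cycling 114 CPM.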

How the results depend on the processing

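No paired analysis was possible because each group had 1 library and the labels give no replicate numbers. The share of TAM_C1q changed with the cells counted in it and with the denominator. On the log2 scale, COX2i against CTRL was -0.69 as reported, -0.53 among macrophage classes and 0.13 with TAM_cycling, which turned its direction. COX2i + 5-AZA against COX2i was -0.69 as reported, -0.82 without Myofibrobl, -0.45 in cells with more than 2000 genes, -1.08 with TAM_cycling and 0.18 among macrophage classes, which turned its direction. COX2i + 5-AZA against CTRL was -1.38 as reported, -0.35 among macrophage classes, -1.21 above 2000 genes and -0.95 with TAM_cycling, and IRF3/7 against CTRL -8.34 as reported, -4.75 among macrophage classes and -6.93 with TAM_cycling. Genes higher and lower, in the order of the comparisons COX2i against CTRL, COX2i + 5-AZA against COX2i and COX2i + 5-AZA against CTRL, numbered 422 and 714, 830 and 917, and 762 and 1055 with a minimum of 1 UMI. With 200 UMIs 157, 168 and 306 were lower. Without cells holding markers of other cells, which kept 14.0 to 22.0% of cells, 158, 152 and 141 were lower, and without genes led by Myofibrobl 181, 145 and 173. Without cells with Mki67 or Top2a, 286 were lower in COX2i + 5-AZA against COX2i. For 62 of 78 counts the number stayed within 1.5 times. Scaling by the median of ratios moved the share of higher genes among those called from 43.2 to 49.7% in COX2i + 5-AZA against COX2i, the minimum of 200 UMIs to 57.9%, leaving out cells with Mki67 or Top2a to 51.9%, leaving out cells with markers of other cells to 61.3% and leaving out genes led by Myofibrobl to 67.9%. Against CTRL the last 2 gave 61.6 and 63.2% instead of 32.6%. Of 871 values of named genes 188 moved beyond their interval and of 951 list medians 88 moved by 0.2 or more on the log2 scale, while no named gene past 2-fold changed sign. The causes were not tested. Depth limits genes near 3 UMIs, and no value covers the spread between tumours.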
